A study of Mus musculus with 5 samples.

Results

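Macrophages of the liver were followed here through 40 genes that mark Kupffer cells, lipid-associated macrophages and myeloid cells in general. The genes were chosen by name, with earlier results of these data known. The rows of the gene table with those symbols were taken, with Emr1 as the older symbol of Adgre1. Rows were found for 37 of the 40 genes, among 11048 rows with a gene symbol. Timd4, a phosphatidylserine receptor of resident Kupffer cells, Ccr2, the chemokine receptor of recruited monocytes, and Itgam, an integrin chain of myeloid cells, had no row. All 37 genes with a row were among the 10542 genes tested, which had a value of 10 or more in at least 2 libraries.

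The tissue was liver from db/db mice, which lack a working leptin receptor and become obese and diabetic, and both groups carry that genotype. The SR4 group held 2 libraries from mice given SR4 by oral gavage at 10 mg/kg body weight for 5 weeks, and the vehicle group held 3 libraries from mice given vehicle control over the same time. Age, sex and the breeding background are not stated in the labels, and nothing ties a library to a single animal, and p-values therefore reflect no more than library-to-library spread, which may be technical. Whole liver RNA was sequenced, in which hepatocytes give most of the RNA, so fewer cells of a type and less RNA per cell cannot be told apart. Reads recovered from the deposited values totalled 28113096 and 26407519 in the SR4 libraries and 22878374 to 26768092 in the vehicle libraries. Values below are normalised counts, which are the deposited counts at a common library size of 25494249 divided by a scaling factor for each library. The hepatocyte marker albumin (Alb) averaged 1979972 normalised counts in SR4 livers and 1855881 in vehicle livers. Alb does not stand for all hepatocyte genes. The log2 fold changes of 12 hepatocyte markers ran from -0.61 to 1.48, with a median of 0.23 and 3 of the 12 below 0.

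Kupffer cells are the resident macrophages of the liver sinusoids, where they clear particles, dying cells and old red cells from the blood. In a fatty liver, monocytes enter from the blood and can become macrophages that handle lipid and cell debris and express genes such as Trem2 and Gpnmb. Both kinds share the general equipment of phagocytes, which includes Fc receptor adaptors, lysosomal proteases, complement C1q and the NADPH oxidase.

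Most of the macrophage and myeloid genes had lower values in the SR4 livers, with the widest differences among the markers of lipid-associated macrophages, but none passed the test across all genes. At a limma adjusted p under 0.05, 0 of the 37 genes passed, where 1.31% of all genes tested did (0.873% lower and 0.436% higher in SR4, which were 92 and 46 genes, or 135 and 37 with equal totals as the only scaling). The smallest limma adjusted p among the 37 was 0.0682. An unadjusted limma p under 0.05 was reached by 21 of the 37 genes, or 56.8%, each with the lower value in SR4, against 10.9% of all genes tested in that direction. DESeq2 on recovered reads passed 10 of the 37, or 27%, all lower in SR4, where 5.3% of all genes were lower and 4.93% higher, and edgeR passed 0, with an unadjusted p under 0.05 for 18. The fitted change was below 0 for 35 of the 37 genes, against 50.6% of all genes tested, and the median log2 fold change of the 37 was -0.93, beside -0.0043 for all genes. These genes share their source cells and libraries, so they are not independent of each other. They were also chosen with earlier results of these data known, so their shares against all genes do not come from an unselected list.

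**Figure D1:**
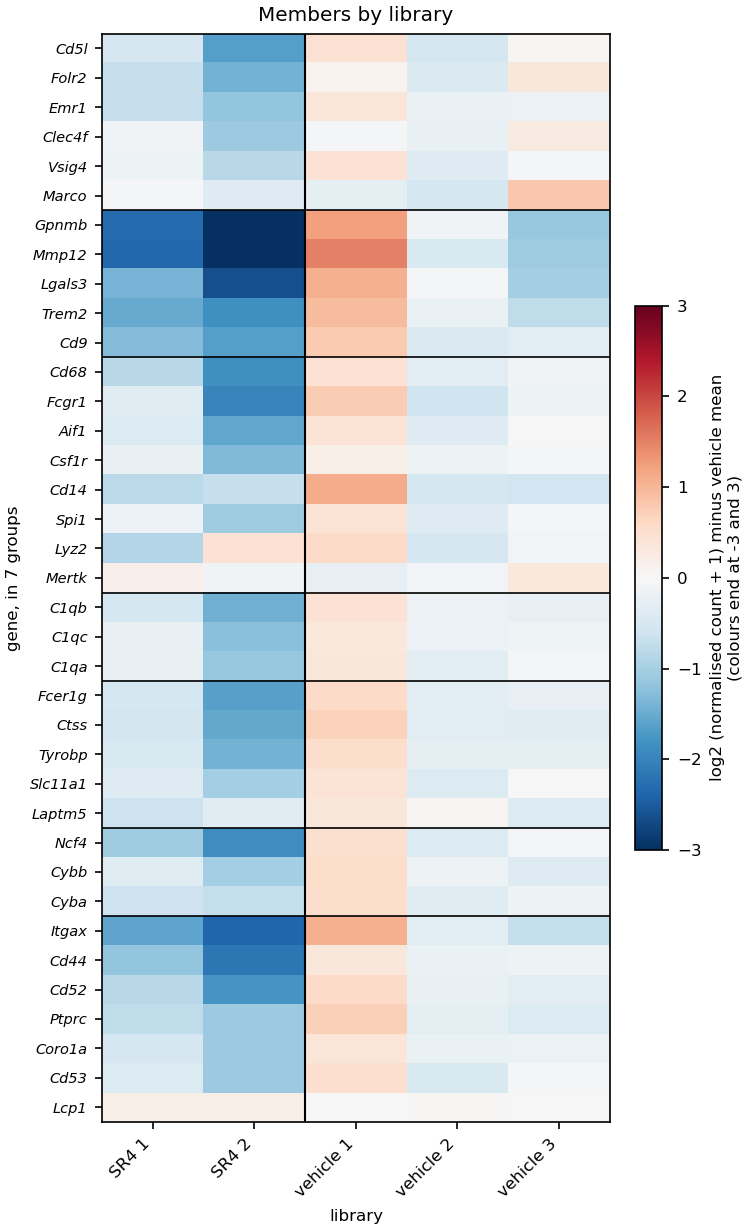
Each row is 1 of 37 genes in 7 groups parted by lines, and each column 1 library, with the 2 SR4 libraries left of the 3 vehicle libraries. Colour gives log2 (normalised count + 1) minus the mean of the vehicle libraries, with colours ending at -3 and 3. The column of SR4 2 is the bluest and that of vehicle 1 the reddest, while Lcp1 and Mertk stay pale.

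The libraries of each group stood apart from each other for these genes. Vehicle 1 had the highest value of all 5 libraries for 32 of the 37 genes, against 26.8% of all genes tested. SR4 2 had the lowest value for 31 of the 37, against 28.1% of all genes, and both held at once for 29, or 78.4%, against 13.1%. Among the vehicle libraries alone, vehicle 1 was the highest for 32 of the 37, against 37.7% of all genes. Summed over the 37 genes, the SR4 libraries held 13541 and 9735 normalised counts, and the vehicle libraries 23423, 14928 and 16537. The SR4 sums lay below the vehicle sums, with SR4 1 close to vehicle 2. The median log2 fold change of the 37 genes was -0.68 without vehicle 1, -0.53 without SR4 2 and -0.28 without both. Both SR4 libraries lay below all vehicle libraries for 23 of the 37 genes, or 62.2%, where 20.2% of all genes did, and above them for 1 gene, Lcp1, where 21.5% of all genes did. At least a 2-fold lower fitted value was seen for 15 of the 37, against 3.98% of all genes.

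Resident Kupffer cell markers were measured for 6 of the 7 genes listed, and their median log2 fold change was -0.77 (-0.34 without SR4 2 and -0.23 without SR4 2 and vehicle 1). None passed in limma. An unadjusted p under 0.05 was reached by 3, or 50%, and DESeq2 passed 1, Emr1, or 16.7%. These small counts stand beside 10.9% and 5.3% of all genes tested, lower in SR4. Clec4f, a C-type lectin that in mice is found on Kupffer cells, had 1417 and 718 normalised counts in the SR4 libraries, against 1500, 1305 and 1843 in the vehicle libraries. The groups overlapped, since SR4 1 lay within the vehicle range and only SR4 2 lay below it (log2 fold change -0.60, SE 0.30, limma adjusted p = 0.309; -0.11 without SR4 2). Cd5l, a secreted scavenger protein also called AIM, had 1349 and 615 in SR4 livers, against 2647, 1339 and 2010 in vehicle livers. Here SR4 1 lay just above the lowest vehicle library and SR4 2 far below it (log2 fold change -1.08, SE 0.41, limma adjusted p = 0.209; -0.51 without SR4 2).

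Emr1, which encodes the F4/80 surface protein of mouse macrophages, had 156 and 111 normalised counts in SR4 livers and 325, 220 and 224 in vehicle livers. The groups did not overlap, and the log2 fold change was -0.94 (SE 0.25, limma adjusted p = 0.107, DESeq2 adjusted p = 0.021). Folr2, a folate receptor of resident macrophages, had 77.9 and 46.4 in SR4 livers and 136, 93.3 and 160 in vehicle livers, also without overlap (limma adjusted p = 0.143). Vsig4, a complement receptor of Kupffer cells, had 347 and 217 in SR4 livers, against 521, 294 and 377 in vehicle livers. Marco, a scavenger receptor, had 51.9 and 40.4 in SR4 livers, against 42.9, 36.7 and 93.7 in vehicle livers, where 1 library set the higher mean. The groups overlapped for both, with limma adjusted p = 0.38 for Vsig4 and 0.829 for Marco, whose log2 fold change of -0.21 was 0.20 without vehicle 3.

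Lipid-associated macrophage markers showed the widest differences of the 7 groups of genes. In all 5 genes both SR4 libraries lay below all 3 vehicle libraries and the fitted value was at least 2-fold lower, with a median log2 fold change of -2.01 (-1.49 without vehicle 1, -1.51 without SR4 2 and -1.03 without both). Of all genes tested, 20.2% lay below all vehicle libraries in both SR4 libraries, and 3.98% were at least 2-fold lower. None of the 5 passed in limma over all genes. All 5 had an unadjusted p under 0.05, against 10.9% of all genes lower in SR4. DESeq2 passed 4, all but Lgals3, or 80%, against 5.3%. In these 5 genes vehicle 1 was also the highest library and SR4 2 the lowest, and the vehicle libraries spread widely.

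Gpnmb, a transmembrane glycoprotein of lipid-laden macrophages, had 40.5 and 13.1 normalised counts in the SR4 libraries, against 484, 192 and 93.4 in the vehicle libraries. Its log2 fold change was -3.10 (SE 0.77, limma adjusted p = 0.107, DESeq2 adjusted p = 0.000113), and it was -2.49 without vehicle 1 and -2.32 without SR4 2. Mmp12, the macrophage elastase, had 27 and 11 in SR4 livers, against 410, 105 and 68.2 in vehicle livers, where vehicle 1 was far above the other two (log2 fold change -2.97, SE 0.81, limma adjusted p = 0.119, DESeq2 adjusted p = 0.000381). Trem2, a lipid receptor that signals through Tyrobp, had 23.1 and 18.2 in SR4 livers, against 132, 58.4 and 39.7 in vehicle livers. The log2 fold change of Trem2 was -1.67 (SE 0.53, limma adjusted p = 0.143, DESeq2 adjusted p = 0.0248).

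Lgals3, which encodes galectin-3, a lectin secreted by macrophages, had 156 and 65.5 normalised counts in SR4 livers, against 858, 399 and 203 in vehicle livers (log2 fold change -2.01, SE 0.66, limma adjusted p = 0.165). Cd9, a tetraspanin found on lipid-associated macrophages and on many other cells, had 255 and 199 in SR4 livers and 1087, 461 and 494 in vehicle livers (log2 fold change -1.47, SE 0.39, limma adjusted p = 0.114, DESeq2 adjusted p = 0.00162). For Cd9 the SR4 libraries lay close together and vehicle 1 stood above the other vehicle libraries. Recovered reads in the SR4 libraries were 42 and 13 for Gpnmb, 28 and 11 for Mmp12 and 24 and 18 for Trem2, so counting error adds to the spread of these 3 genes.

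**Figure D2:**
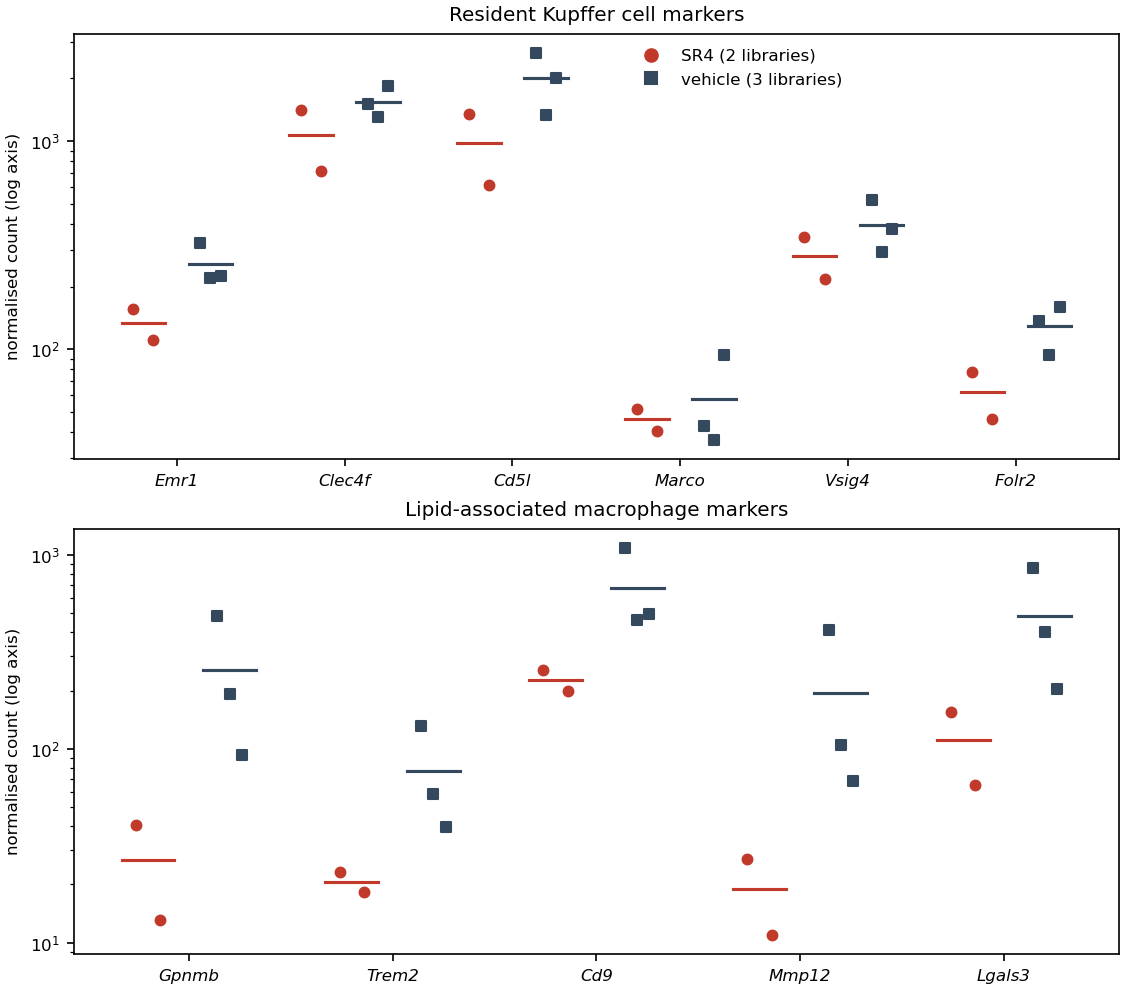
Normalised counts on a log axis for 6 resident Kupffer cell markers (top) and 5 lipid-associated macrophage markers (bottom). Circles are the 2 SR4 libraries, squares the 3 vehicle libraries, and lines the group means. In the lower panel all circles lie below all squares of the same gene, while for Clec4f, Cd5l, Marco and Vsig4 in the upper panel the groups overlap.

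The lipid-associated markers were also set against Clec4f within each library, a ratio that does not depend on the scaling of the library. The ratio of Gpnmb to Clec4f was 0.0286 and 0.0182 in SR4 livers, against 0.323, 0.147 and 0.0507 in vehicle livers, and that of Mmp12 to Clec4f was 0.0191 and 0.0154, against 0.273, 0.0802 and 0.037 in vehicle livers. In these 2 of the 5 ratios the groups did not overlap, and in the other 3 they met or overlapped. The ratio of Lgals3 to Clec4f was 0.11 and 0.0913 in SR4 livers, against 0.572, 0.306 and 0.11 in vehicle livers, so that the highest SR4 library met the lowest vehicle library. The ratio of Trem2 to Clec4f was 0.0163 and 0.0253 in SR4 livers and 0.0882, 0.0448 and 0.0215 in vehicle livers, and that of Cd9 to Clec4f was 0.18 and 0.277 in SR4 livers and 0.724, 0.354 and 0.268 in vehicle livers, both with overlap. The ratio of C1qa to Clec4f, between a general macrophage gene and a Kupffer cell marker, was 0.64 and 0.662 in SR4 livers and 0.889, 0.651 and 0.56 in vehicle livers, with the SR4 values inside the vehicle range. These ratios were picked after the values were seen and were not tested.

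Promoter sequence is shown for 3 of the 5 lipid-associated markers, Gpnmb, Mmp12 and Trem2, and for the pan-macrophage marker Cd68, picked with their values known, since myeloid factors of the ETS family such as PU.1 (Spi1) and factors of the AP-1 family are known regulators of macrophage genes. The sequences are from RefSeq (GRCm38.p6), 5′ to 3′ on the strand of the gene, from 250 bases before to 50 after the annotated start, at chr6:49036268-49036567 (plus strand) for Gpnmb, chr9:7347124-7347423 (plus) for the second of 2 starts of Mmp12, chr17:48346151-48346450 (plus) for Trem2 and chr11:69666121-69666420 (minus) for Cd68. Capitals mark the ETS core GAGGAA and the AP-1 motif TGAGTCA on either strand. The first start of Mmp12, at chr9:7344147-7344446 (plus), is not shown. It held an ETS core and no AP-1 match, while the second start held an AP-1 match and no ETS core.
Gpnmb: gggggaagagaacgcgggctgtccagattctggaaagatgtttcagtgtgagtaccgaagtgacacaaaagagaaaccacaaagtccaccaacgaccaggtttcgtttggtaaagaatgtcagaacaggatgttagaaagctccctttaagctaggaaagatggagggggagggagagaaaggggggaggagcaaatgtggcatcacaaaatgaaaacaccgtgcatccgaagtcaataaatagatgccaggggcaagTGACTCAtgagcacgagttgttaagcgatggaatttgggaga
Mmp12: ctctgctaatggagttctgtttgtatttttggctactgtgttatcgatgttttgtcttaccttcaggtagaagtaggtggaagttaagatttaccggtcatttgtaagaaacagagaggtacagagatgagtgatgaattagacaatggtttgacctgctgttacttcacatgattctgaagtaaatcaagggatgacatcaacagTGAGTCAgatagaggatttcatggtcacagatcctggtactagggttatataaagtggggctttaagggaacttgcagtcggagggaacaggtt
Trem2: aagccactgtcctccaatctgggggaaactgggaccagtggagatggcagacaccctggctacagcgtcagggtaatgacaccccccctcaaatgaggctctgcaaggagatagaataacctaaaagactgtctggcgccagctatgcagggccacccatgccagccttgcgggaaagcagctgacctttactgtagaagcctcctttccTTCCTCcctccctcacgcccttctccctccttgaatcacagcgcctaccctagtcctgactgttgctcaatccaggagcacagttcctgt
Cd68: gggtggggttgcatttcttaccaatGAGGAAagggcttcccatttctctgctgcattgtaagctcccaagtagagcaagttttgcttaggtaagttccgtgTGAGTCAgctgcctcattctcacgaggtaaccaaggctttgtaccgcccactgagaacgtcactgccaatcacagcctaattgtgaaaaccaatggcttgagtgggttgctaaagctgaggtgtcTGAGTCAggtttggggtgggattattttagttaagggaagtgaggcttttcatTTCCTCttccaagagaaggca

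Promoters were matched for 29 of the 37 genes. GAGGAA or its reverse complement TTCCTC was found for 17 of the 29, or 58.6%, against 31.3% of all 27025 genes with a promoter of that length. TGAGTCA or its reverse complement TGACTCA was found for 5 of the 29 (Cd68, Folr2, Gpnmb, Itgax and Mmp12), or 17.2%, against 5.95% of all genes. The palindromic E-box CACGTG, bound by the MITF and TFE factors of lysosomal genes, was found for 0 of the 29, against 8.09% of all genes. In all, 7 spellings were looked at before 3 were shown, and the other 4 are longer forms of GAGGAA and CACGTG that overlap them. GAGGAAG was found for 10 of the 29 against 15.4% of all genes, GAGGAAGT for 4 against 3.69%, AGAGGAAG for 5 against 5.22%, and TCACGTG for 0 against 4.29%, each on either strand. A gene with several starts counted once where any of its promoters held a match. A match is only a match of letters, and the share over all genes includes genes that liver does not express.

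General macrophage and monocyte genes showed a median change of -0.76 on the log2 scale over 8 genes (-0.17 without SR4 2 and vehicle 1). None passed in limma. An unadjusted p under 0.05 was reached by 2 of the 8, or 25%, and DESeq2 passed 1, or 12.5%. These small counts stand beside 10.9% and 5.3% of all genes tested, lower in SR4. Cd68, a lysosomal membrane protein of macrophages, had 173 and 85.7 normalised counts in SR4 livers, against 417, 249 and 288 in vehicle livers, without overlap (log2 fold change -1.34, SE 0.35, limma adjusted p = 0.108, DESeq2 adjusted p = 0.00907). Csf1r, the receptor that macrophages need to survive, had 913 and 420 in SR4 livers, against 1204, 953 and 1033 in vehicle livers. The vehicle libraries lay close together, SR4 1 lay just below them, and the SR4 mean came mainly from SR4 2 (log2 fold change -0.77, SE 0.32, limma adjusted p = 0.236; -0.21 without SR4 2). Without SR4 1 Csf1r passed in limma at an adjusted p of 0.0291, and its adjusted p ran from 0.0291 to 0.797 over the 18 alternatives.

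Aif1, which encodes the actin-binding protein Iba1, had 67.4 and 30.2 normalised counts in SR4 livers, against 120, 68.8 and 89.7 in vehicle livers. Spi1, the gene of the myeloid factor PU.1, had 128 and 68.6 in SR4 livers, against 194, 111 and 143 in vehicle livers, with overlap. Fcgr1, a high-affinity receptor for antibody, had 48.2 and 15.1 in SR4 livers, against 105, 40.5 and 55.9 in vehicle livers, also with overlap. Cd14, the co-receptor of bacterial lipopolysaccharide, had 48 and 51.5 in SR4 livers, against 183, 58.4 and 56.1 in vehicle livers. Vehicle 1 stood apart, and the Cd14 log2 fold change of -0.75 was -0.20 without it. The limma adjusted p-values were 0.233 for Aif1, 0.342 for Spi1, 0.317 for Fcgr1 and 0.461 for Cd14.

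Lyz2 and Mertk did not follow the other macrophage genes. Lyz2, the lysozyme of macrophages and neutrophils, had 552 and 1371 normalised counts in SR4 livers, against 1505, 717 and 962 in vehicle livers. SR4 2, the lowest library for most of these genes, was the second highest for Lyz2, and the log2 fold change of -0.22 (limma adjusted p = 0.822) was 0.44 without SR4 1. Reads can be split between Lyz2 and the similar gene Lyz1, which had 24.9 and 101 in SR4 livers, against 77.2, 45.6 and 64.5 in vehicle livers. Lyz1 thus had the same order of the SR4 libraries as Lyz2. Mertk, a receptor for the uptake of dying cells, had 360 and 301 in SR4 livers, against 277, 308 and 407 in vehicle livers, with a log2 fold change of 0.01 and a 95% interval of -0.45 to 0.47.

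**Figure D3:**
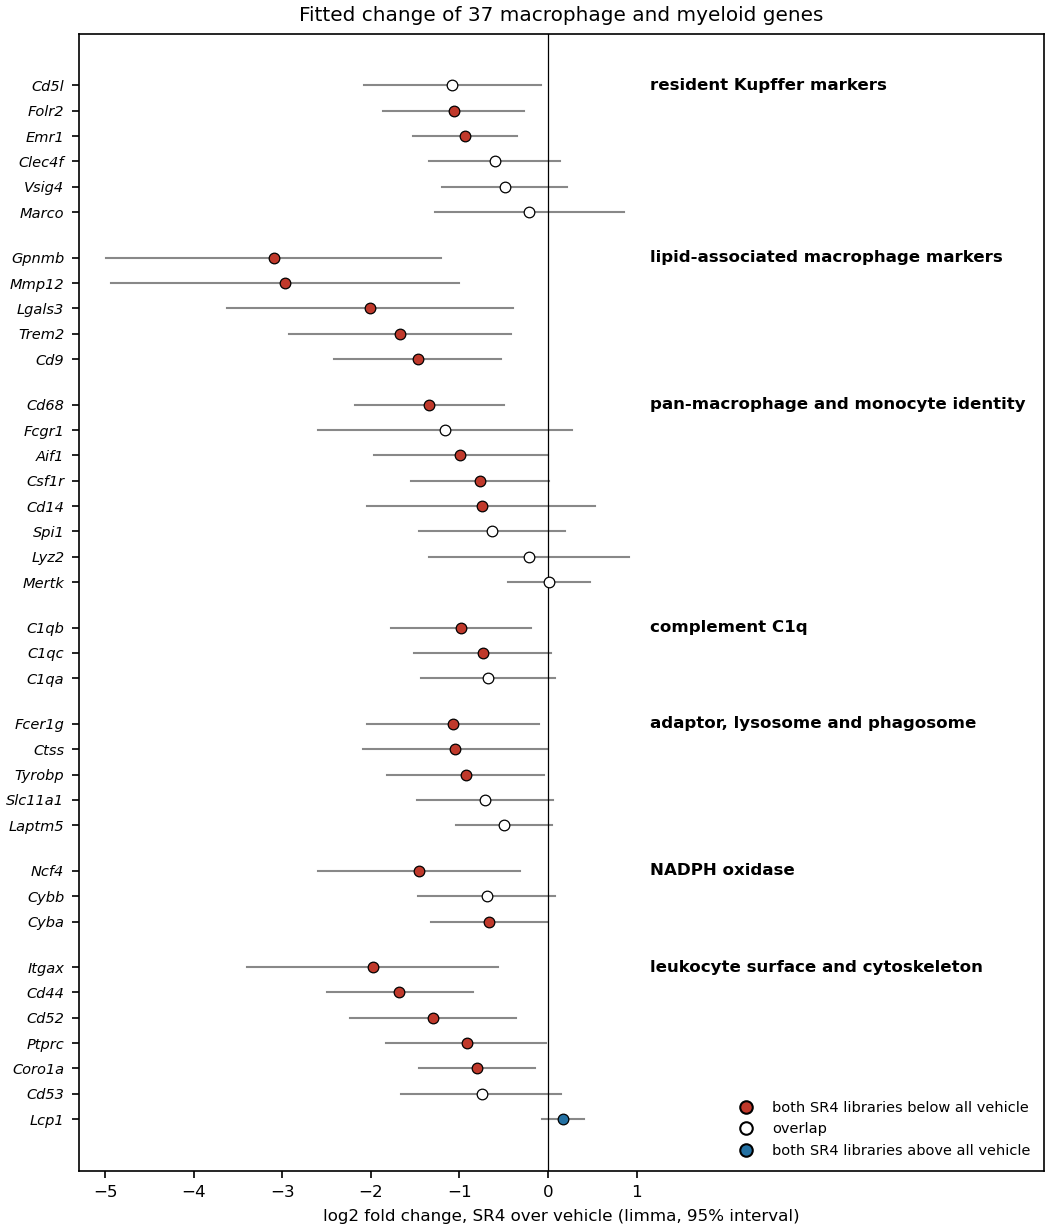
Fitted log2 fold change of SR4 over vehicle for 37 genes in 7 groups, with 95% intervals from limma. Red points mark genes for which both SR4 libraries lay below all vehicle libraries (23 genes), the blue point the gene for which both lay above (Lcp1), and open points the genes with overlap. The 5 lipid-associated macrophage markers run from -3.10 to -1.47, left of the 6 resident Kupffer cell markers, which run from -1.08 to -0.21.

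The 3 chains of complement C1q, the recognition part of the classical complement pathway, lie side by side on chromosome 4 and had similar values. C1qa had 906 and 475 normalised counts in SR4 livers, against 1334, 849 and 1033 in vehicle livers. C1qb had 839 and 446, against 1634, 1062 and 1015 in vehicle livers, and C1qc had 931 and 459, against 1353, 960 and 999. In each chain SR4 2 lay well below SR4 1, and the groups overlapped for C1qa. The log2 fold changes were -0.68, -0.98 and -0.74 for C1qa, C1qb and C1qc, with limma adjusted p-values of 0.274, 0.165 and 0.248, and DESeq2 passed C1qb (adjusted p = 0.0399). Their median was -0.74, with -1.25 without SR4 1, -0.23 without SR4 2 and -0.07 without SR4 2 and vehicle 1.

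The adaptor, lysosome and phagosome genes showed a median change of -0.93 on the log2 scale over 5 genes (-0.20 without SR4 2 and vehicle 1). None passed in limma or DESeq2. An unadjusted limma p under 0.05 was reached by 3, or 60%, against 10.9% of all genes tested, lower in SR4. Tyrobp, also called DAP12, the signalling partner of Trem2, had 225 and 115 normalised counts in SR4 livers, against 447, 257 and 253 in vehicle livers. Fcer1g, the common chain of Fc receptors, had 182 and 84.7, against 389, 209 and 222 in vehicle livers. Ctss, the lysosomal protease cathepsin S, had 578 and 290, against 1369, 674 and 657 in vehicle livers. In these 3 genes the groups did not overlap, SR4 1 lay just below the lower vehicle libraries, and the limma adjusted p-values were 0.218, 0.199 and 0.232. Slc11a1, a metal transporter of the phagosome, had 91.3 and 58.5 in SR4 livers and 161, 90.5 and 119 in vehicle livers. Laptm5, a lysosomal membrane protein of blood cells, had 288 and 344 in SR4 livers and 568, 463 and 338 in vehicle livers. Both overlapped, and for Laptm5 SR4 2 was the higher SR4 library.

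The 3 subunits of the phagocyte NADPH oxidase, which makes superoxide, showed a median change of -0.69 on the log2 scale (-0.36 without SR4 2 and vehicle 1). None passed in limma or DESeq2. An unadjusted limma p under 0.05 was reached by 2, or 66.7%, against 10.9% of all genes tested, lower in SR4. Cyba, the p22phox subunit of the membrane, had 140 and 131 normalised counts in SR4 livers, against 310, 167 and 195 in vehicle livers. Cybb, the catalytic subunit, had 206 and 131, against 390, 239 and 204 in vehicle livers, and overlapped. Ncf4, a cytosolic subunit, had 16.4 and 9.05, against 49.6, 26.3 and 34 in vehicle livers. Ncf4 had the widest difference of the 3 (log2 fold change -1.46, SE 0.48, limma adjusted p = 0.155), from 17 and 9 recovered reads in the SR4 libraries.

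Leukocyte surface and cytoskeleton genes showed a median change of -0.92 on the log2 scale over 7 genes (-0.40 without SR4 2 and vehicle 1). None passed in limma. An unadjusted p under 0.05 was reached by 5, or 71.4%, and DESeq2 passed 3, Cd44, Cd52 and Itgax, or 42.9%. These counts stand beside 10.9% and 5.3% of all genes tested, lower in SR4. Cd44, a hyaluronan receptor of leukocytes and other cells, had 66.4 and 33.3 normalised counts in SR4 livers, against 194, 133 and 138 in vehicle livers. The gap between the groups was wide, and Cd44 had the smallest limma adjusted p of the 37 genes at 0.0682 (log2 fold change -1.68, SE 0.35, DESeq2 adjusted p = 0.000963). It was -1.51 without vehicle 1 and -1.19 without SR4 2, and it passed in limma without SR4 1 (adjusted p = 0.0417).

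Itgax, the integrin chain CD11c of dendritic cells and lipid-associated macrophages, had 18.3 and 10.1 normalised counts in SR4 livers, against 119, 44.2 and 34.2 in vehicle livers (log2 fold change -1.98, SE 0.60, limma adjusted p = 0.133, DESeq2 adjusted p = 0.0193). Cd52, a small glycoprotein of leukocytes, had 78.9 and 40.3, against 208, 121 and 110 in vehicle livers (limma adjusted p = 0.135). Ptprc, the pan-leukocyte phosphatase CD45, had 65.3 and 51.5, against 182, 89.5 and 83.3 in vehicle livers (limma adjusted p = 0.227). None of these 3 overlapped. Coro1a, an actin-binding protein of leukocytes, had 119 and 78.7 in SR4 livers and 220, 148 and 150 in vehicle livers, and Cd53, a leukocyte tetraspanin, had 57.7 and 35.3 in SR4 livers and 109, 55.6 and 74.5 in vehicle livers, with overlap for Cd53.

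Lcp1, the actin-bundling protein L-plastin, was the 1 gene of the 37 for which both SR4 libraries lay above all vehicle libraries. It had 2543 and 2546 normalised counts in SR4 livers, against 2237, 2329 and 2239 in vehicle livers. The difference was small, with a log2 fold change of 0.17 and a 95% interval of -0.07 to 0.41 (limma adjusted p = 0.386). The ratio of Lcp1 to Ptprc was 38.9 and 49.5 in SR4 livers, against 12.3, 26 and 26.9 in vehicle livers. In the annotation 311 and 219 exon bases of Lcp1 overlap 2 non-coding genes on the opposite strand, and a library kit that keeps no strand cannot part their reads. Of the other genes with a row, Cd9, Cd52, Coro1a, Csf1r, Folr2 and Mmp12 also share exon bases with a gene on the opposite strand, with 975 of 1546 bases for Folr2 as the largest share. Itgam, which had no row, shares 3450 of its 5024 exon bases with the protein-coding gene Gm49368 on the same strand, which had no row either. Whether this overlap bears on the missing row was not tested.

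Per kilobase of annotated exon, C1qa, C1qb, Lyz2, Cd5l and Clec4f were among the most abundant of the 37 genes. Ctss had 319 normalised counts per kilobase in SR4 livers and 663 in vehicle livers, below Clec4f in SR4 livers and above it in vehicle livers. The mean levels of those 5 genes were 664 normalised counts per kilobase for C1qa, 591 for C1qb, 731 for Lyz2, 482 for Cd5l and 432 for Clec4f in SR4 livers, against 1031, 1137, 807, 982 and 627 in vehicle livers. Gpnmb, Mmp12 and Trem2 lay far lower, at 4.11, 2.63 and 4.17 normalised counts per kilobase in SR4 livers, against 39.4, 26.8 and 15.5 in vehicle livers. Lengths join all annotated exons of a gene, with 6514, 7237 and 4946 bases for these 3 genes and 1040 and 1088 for C1qa and C1qb. Where that length exceeds the transcript expressed, the value per kilobase is too low. The order of the most abundant genes differs between the groups, and differences between neighbours in it were not tested.

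Other genes of macrophages were read from 6 further lists. Of all genes tested, 10.9% were lower and 1101 of 10542 higher in SR4 at an unadjusted limma p under 0.05. DESeq2 passed 5.3% lower and 4.93% higher. The counts of each list are to be read beside these shares. Of 41 further macrophage receptors and adaptors, 25 were tested, none passed in limma, 11 had an unadjusted p under 0.05 with lower values in SR4, DESeq2 passed 3, and the median log2 fold change was -0.85. Their smallest p-values were those of Gas6, a ligand of Mertk and Axl, with 1654 and 1622 normalised counts in SR4 livers and 3535, 2567 and 2336 in vehicle livers (limma adjusted p = 0.0933), and Itgb2, the partner chain of Itgax, with 131 and 136 in SR4 livers and 286, 179 and 204 in vehicle livers (limma adjusted p = 0.154). Neither of these 2 genes overlapped.

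Further resident Kupffer genes were less uniform. Of 26, 21 were tested and none passed in limma, with 3 lower and 4 higher in SR4 at an unadjusted p under 0.05, 1 lower and 1 higher in DESeq2, and a median of -0.40. The fitted change was below 0 for 13 of the 21, or 61.9%, against 50.6% of all genes tested. The share lower in SR4 was 14.3% at an unadjusted p under 0.05 and 4.76% in DESeq2. Over all genes these shares were 10.9% and 5.3%, so the list lay near the background. Whole liver RNA does not show which cells gave these reads, so the mixed directions cannot be assigned to Kupffer cells. C6, a complement component, had 303 and 203 in SR4 livers, against 584, 340 and 477 in vehicle livers (limma adjusted p = 0.143).

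Of 25 further genes of lipid-associated macrophages 19 were tested, with a median of -0.48, and 1 passed lower and 1 higher in limma. The lipid droplet protein Plin2 fell, with 13597 and 9688 normalised counts in SR4 livers against 33335, 30427 and 25185 in vehicle livers (log2 fold change -1.36, SE 0.21, limma adjusted p = 0.0441). The proton pump subunit Atp6v0d2 rose, with 272 and 382 in SR4 livers against 132, 97.1 and 109 in vehicle livers (log2 fold change 1.52, SE 0.23, limma adjusted p = 0.0389). DESeq2 passed 5 lower and 1 higher, with 26.3% of the 19 lower against 5.3% of all genes tested. Plin2 and Apoe, both on this list, averaged 29649 and 647647 normalised counts in vehicle livers, beside 257 for Gpnmb. Whole liver RNA does not show which cells gave the reads of this list, and their source was not tested.

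Of 34 chemokines, cytokines and their receptors 18 were tested, none passed in limma, 5 were lower and 3 higher at an unadjusted p under 0.05, 4 were lower and 1 higher in DESeq2, and the median was -0.58. Ccl6 had 53.8 and 49.5 normalised counts in SR4 livers, against 234, 120 and 92.1 in vehicle livers (limma adjusted p = 0.121), and Ccl9, a chemokine of the same family, had 3037 and 2776, against 1398, 857 and 1742 in vehicle livers (limma adjusted p = 0.101). The 2 chemokines thus lay on opposite sides, without overlap in either. Of 10 further NADPH oxidase genes 4 were tested and none passed in limma or DESeq2, with 2 lower and 1 higher at an unadjusted p under 0.05. Rac2, the leukocyte GTPase of the oxidase, had 135 and 78.9 in SR4 livers and 269, 161 and 158 in vehicle livers, and Nox4, an oxidase of non-phagocytic cells, had 726 and 613 in SR4 livers and 418, 531 and 552 in vehicle livers (limma adjusted p = 0.197 and 0.196). Of 17 macrophage transcription factors 10 were tested and none passed in limma, with 1 lower and 3 higher at an unadjusted p under 0.05, 2 higher in DESeq2 and a median of 0.09. The immediate early gene Nr4a1 had 191 and 285 in SR4 livers, against 133, 41.4 and 58.2 in vehicle livers (limma adjusted p = 0.124).

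Markers of other cell types were read in the same libraries. Of 12 B cell and plasma cell markers 0 had a row, of 18 T cell and NK cell markers 1 (Themis, with 93.2 and 52.4 normalised counts in SR4 livers and 244, 203 and 355 in vehicle livers, limma adjusted p = 0.0559, DESeq2 adjusted p = 3.18e-05), and of 14 neutrophil markers 3, of which S100a9 had 13.5 and 9.06 in SR4 livers and 35.9, 20.7 and 13.3 in vehicle livers (limma adjusted p = 0.403). The other 2 neutrophil genes had higher SR4 means, with 2484 and 589 for Lcn2 in SR4 livers and 1936, 1149 and 691 in vehicle livers (log2 fold change 0.07, limma adjusted p = 0.969), and 3.79 and 6.07 for S100a8 in SR4 livers and 5.82, 4.72 and 2.27 in vehicle livers, which was too low to test. The groups overlapped for both. Lcn2 lay far above S100a9 and S100a8 in level, and which cells gave its reads was not tested. Of 12 dendritic cell markers 4 were tested, with a median of -0.90, and H2-Eb1, a class II antigen-presenting gene that macrophages also express, had 832 and 319 in SR4 livers and 1690, 927 and 670 in vehicle livers. Of 16 sinusoidal endothelial markers 15 were tested, with a median of -0.04. Their sums were 12406 and 7406 in SR4 livers, against 8369, 9242 and 12275 in vehicle livers, and SR4 2 was below SR4 1 in all 15, as it was in 33 of the 37 macrophage and myeloid genes and in 50.7% of all genes tested. All 14 stellate cell and fibroblast markers were tested, with a median of -0.49, and summed to 16633 and 13335 in SR4 livers and 21020, 21232 and 15274 in vehicle livers. Collagen Col1a1 had 394 and 290 in SR4 livers, against 974, 1605 and 697 in vehicle livers (limma adjusted p = 0.0867).

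Of 10 erythroid and blood markers 7 were tested, with a median of -0.77, and both that passed in limma were lower. At an unadjusted limma p under 0.05 6 of the 7 were lower, and DESeq2 also passed 6 lower. Globin genes are near-identical copies, so reads may be split among them. Hbb-bt and Hbb-b2 held identical values in every library, so the counts of 6 and 7 include the same measurement under both symbols. Hbb-bs, a haemoglobin gene, fell, with 1204 and 1029 normalised counts in SR4 livers against 2434, 2818 and 2263 in vehicle livers (limma adjusted p = 0.0337), and Hbb-b1 fell, with 2232 and 1674 against 4435, 4999 and 3936 in vehicle livers (limma adjusted p = 0.0389). For the globins vehicle 1 was not the highest library. None of the 14 stellate cell, 15 endothelial, 4 dendritic cell, 12 hepatocyte or 2 tested cholangiocyte markers passed in limma. At an unadjusted p under 0.05 5 stellate cell markers were lower, and 1 hepatocyte marker was lower and 5 higher. DESeq2 passed 4 stellate cell markers lower, and 1 hepatocyte marker lower and 5 higher, and none of the endothelial, dendritic or cholangiocyte markers. Of all genes tested, 10.9% were lower and 1101 of 10542 higher at an unadjusted limma p under 0.05. DESeq2 passed 5.3% of them lower and 4.93% higher. The part of blood content, of the share of other non-hepatocyte cells and of single libraries in the lower macrophage values was not tested.

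**Figure D4:**
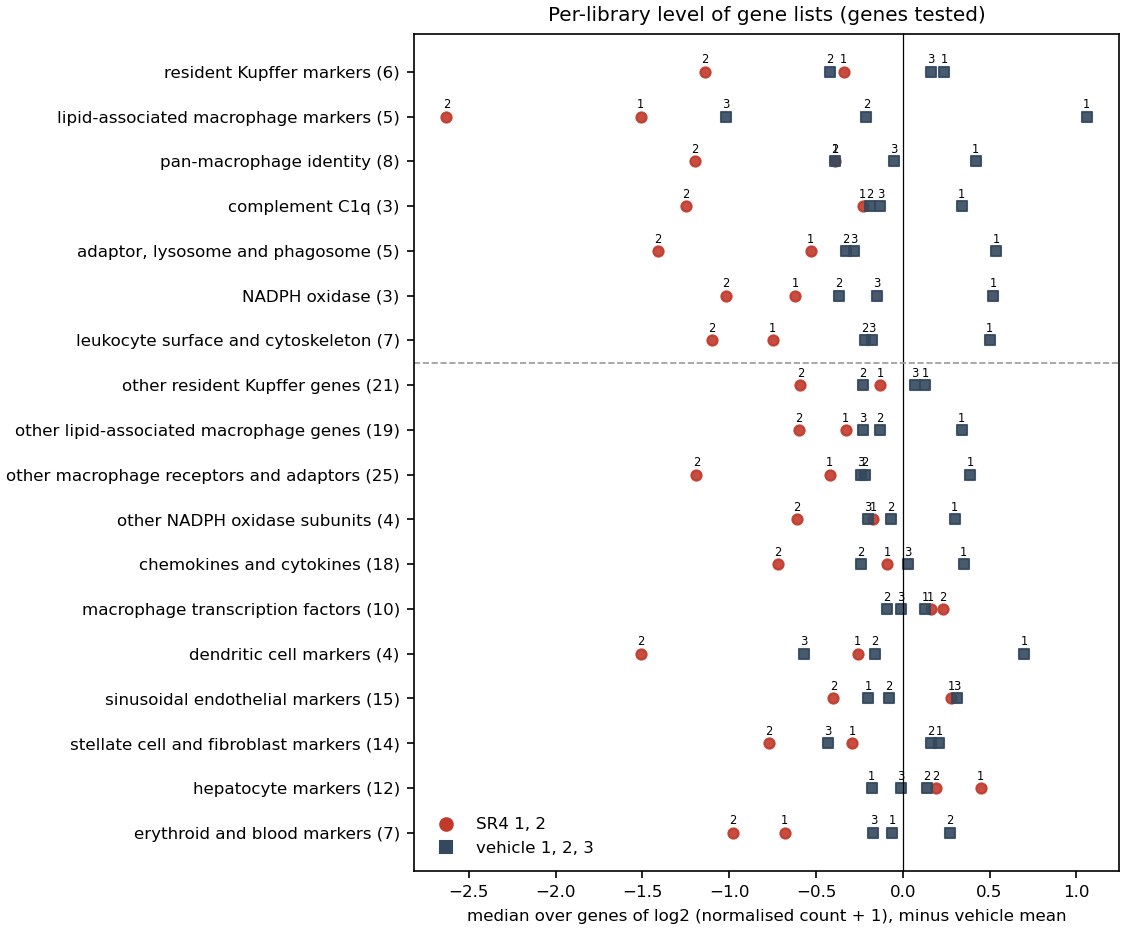
Each point is the median over the genes of a list of log2 (normalised count + 1) minus the vehicle mean, for 1 library (circles, SR4 1 and 2; squares, vehicle 1, 2 and 3; the small digit is the library number). The 7 groups of macrophage and myeloid genes stand above the dashed line, and lists with at least 3 genes tested below it. SR4 2 is the lowest library in all 7 upper rows, and the endothelial row, with 0.28 and -0.40 for SR4 1 and 2, has SR4 1 within the vehicle range and SR4 2 below it.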

How the data were processed

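Per the labels' protocols, RNA was isolated by RNeasy Mini and 500 ng went into each TruSeq RNA V2 library. TopHat2 2.1.1, Partek and GRCm38 (mm10) are named, per the submitters' processing notes. The counter was not given in the sources used here. The deposited signal values were gene counts adjusted to a common library size, as the values show. They matched the quantile adjustment of edgeR's equalizeLibSizes per group with a dispersion of 0.0767, fitted on 32 low patterns. Inverting it gave reads, 85.3% whole within 0.02 reads among 37769 values of 0.5 to 1000 reads. The rest were fractions of a read and were rounded for count tests. The inversion was run on counts simulated with the same fitted settings. Such a run tests only the inversion itself and cannot show that the submitters used this adjustment.

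The table had 11065 rows. In 17 of them (0.18% of counts) a date stood in place of the symbol, and these were left out. The test was limma on log2(value / TMM factor + 1), with values of 10 or more in at least 2 libraries, empirical Bayes with trend and robust shrinkage, and Benjamini-Hochberg adjustment over 10542 genes at 0.05. Fold changes on this scale understate changes of low genes. This test was chosen because the values are not counts. Means are over n = 2 SR4 and n = 3 vehicle libraries. edgeR, DESeq2, limma-voom, other scalings, pseudocounts and filters, a replicate block and leaving out each library were alternatives. Leaving out SR4 2 and vehicle 1 together was chosen after seeing the data. Exon lengths and overlaps came from GENCODE M21. All members are accounted for. Of other lists up to 4 passing genes by smallest p, or otherwise 2, were named. A result that this rule would name is not reported here. The members and lists were chosen with earlier results of these data known. Software was R 4.3.3, limma 3.58.1, edgeR 4.0.16, DESeq2 1.42.0, Python 3.11.15 and matplotlib 3.10.9.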

Additional observations from a re-analysis of the deposited data

How the results depend on the processing

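The count of genes passing over the whole table was 138. Leaving out 1 library gave 5 to 191. It was 7 without SR4 2, 8 without vehicle 2 and 5 without vehicle 3. It was 84 with no filter, 474 with the replicate block, 53 with edgeR, 1079 with DESeq2, 45 with limma-voom and 439 without SR4 2 and vehicle 1. Scaling to equal totals alone moved the median of all genes to -0.13, and 135 genes were lower and 37 higher, against 92 and 46. The count of macrophage and myeloid genes that passed was 0. Leaving out 1 library gave 0 to 2 (Cd44 and Csf1r without SR4 1). It was 15 with the replicate block, 10 with DESeq2 and 1 (Cd9) without SR4 2 and vehicle 1, and 0 in the scaling, pseudocount, filter, shrinkage, edgeR and limma-voom alternatives. The replicate numbers are not stated to pair samples, and only 2 pairs share a number, with correlations of deviations of 0.17 and 0.11, so the block is given only here. Without SR4 2 and vehicle 1 the median log2 fold change was -0.23 for resident Kupffer markers, -1.03 for lipid-associated markers and -0.28 for all 37 genes. With 1 library left out those medians ran from -1.13 to -0.34, from -2.63 to -1.49 and from -1.33 to -0.53.

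The direction turned for 6 genes. Lyz2 was 0.44 without SR4 1 and 0.06 without vehicle 1, with a lowest value of -0.87 when 1 library was left out. Marco was 0.20 with the replicate block and 0.20 without vehicle 3 (lowest -0.46 without vehicle 2). Mertk was -0.11 with equal totals, -0.12 without SR4 1, -0.11 without vehicle 1, -0.03 without vehicle 2, -0.0034 with edgeR and -0.0037 with DESeq2. Without SR4 2 and vehicle 1, Fcgr1 was 0.02, Spi1 0.02 and Vsig4 0.06, against lowest values of -1.97, -1.08 and -0.83 without SR4 1. The cause was not tested for any of these. Of 666 values for single genes under the alternatives, 625 kept direction and side of the threshold and 28 passed only under the alternative. Gpnmb rested on 42 and 13 recovered reads in the SR4 libraries and on 497, 204 and 85 in the vehicle libraries.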
